A study of Mus musculus with 9 samples.

Results

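Otx2, Pou3f1, Tcf15, Foxd3, Sox4, Sall2 and Grhl2 are transcription factors that form one set here as regulators of the formative state, the condition that pluripotent cells pass through between naive self-renewal and commitment to a germ layer. They were chosen by gene symbol, not by any measured value, although earlier results of these data were known when they were chosen. The 7 genes are among 35896 genes with a quantified transcript, and all 7 are among the 14648 genes that passed the filter on low counts.

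The series asks how the Arp2/3 complex, the nucleator of branched actin, bears on the differentiation of E14 cells, an established mouse embryonic stem cell line. There were 3 groups of 3 libraries. Control +LIF2i cells stayed in self-renewal medium with the cytokine LIF, 1 µM of the MEK inhibitor PD0325901 and 1 µM of the glycogen synthase kinase-3β inhibitor CHIR99021. Control 72h -LIF2i cells spent 72 h without all 3 agents, and CK666 72h -LIF2i cells spent the same 72 h without them but with 80 µM CK666, a compound that blocks Arp2/3 activity. All groups share the cell line and a gelatin-coated, serum-containing culture. CK666 came from a DMSO stock and the labels name no DMSO control, so drug and solvent cannot be told apart. Nothing is said of separate cell clones, and the series text calls the replicates biological and paired.

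The libraries held 16894327 to 22550952 estimated counts, meaning reads assigned to transcripts with shared reads divided between them. The libraries numbered replicate 1 stood apart from the others in all 3 groups: between 15690 and 17605 genes were detected in them, and between 18166 and 18749 in replicates 2 and 3. Results that rest on replicate 1 are therefore given with and without it. The labelled cell type was checked with Pou5f1, the defining pluripotency factor, which lay between 1199 and 1866 TPM (transcripts per 1000000, a level corrected for transcript length) in the 9 libraries. In such bulk cultures, fewer cells of a kind and less RNA per cell cannot be told apart.

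In the textbook account, naive mouse embryonic stem cells released from LIF and the 2 inhibitors silence the naive circuit and start FGF and ERK signalling. Otx2, a paired-type homeodomain factor, and Pou3f1, a POU factor also called Oct6, are early responders that redirect Pou5f1 to new enhancers. Foxd3, a forkhead factor, and Grhl2, a grainyhead factor, act at enhancers during the same step, Grhl2 mainly at those of epithelial genes. Tcf15 is a basic helix-loop-helix factor linked to priming for differentiation, Sox4 is a SoxC group HMG-box factor and Sall2 is a spalt-type zinc finger factor.

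Sall2 has an upstream form that was listed at 0 with LIF2i and above 0 after withdrawal, so the sequences around its 2 annotated starts are shown first, followed by 3 of the starts of Otx2. They are RefSeq promoter windows on build GRCm38.p6, from 250 bases before the start to 50 after it, read 5′ to 3′ on the minus strand of chromosome 14. Capitals mark matches, on either strand, to the core words of factor families and of the promoter. For the families, the homeodomain word of OTX factors was read as TAATCC and the octamer of POU factors as ATGCAAAT. The forkhead word was read as TGTTTA, that of SOX factors as ACAATG and the grainyhead word of GRHL factors as AACNGGTT. For the promoter, the TATA word was read as TATAAA, and the CCAAT word by its name. E-box words (CANNTG), which 72.3% of the 32851 windows in the table hold, are left in lower case.
Sall2 upstream start, chr14:52328621-52328920: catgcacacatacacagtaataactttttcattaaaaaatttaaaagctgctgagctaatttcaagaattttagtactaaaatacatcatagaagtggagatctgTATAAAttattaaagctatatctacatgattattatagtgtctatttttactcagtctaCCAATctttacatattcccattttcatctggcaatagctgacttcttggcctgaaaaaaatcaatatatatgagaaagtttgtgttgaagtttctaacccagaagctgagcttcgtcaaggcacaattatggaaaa
Sall2 downstream start, chr14:52316274-52316573: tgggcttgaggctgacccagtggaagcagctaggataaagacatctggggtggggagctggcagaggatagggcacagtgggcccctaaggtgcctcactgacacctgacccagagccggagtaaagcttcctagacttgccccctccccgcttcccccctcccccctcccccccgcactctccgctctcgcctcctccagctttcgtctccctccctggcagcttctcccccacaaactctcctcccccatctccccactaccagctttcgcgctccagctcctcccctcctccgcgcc
Otx2 start 2, chr14:48667459-48667758: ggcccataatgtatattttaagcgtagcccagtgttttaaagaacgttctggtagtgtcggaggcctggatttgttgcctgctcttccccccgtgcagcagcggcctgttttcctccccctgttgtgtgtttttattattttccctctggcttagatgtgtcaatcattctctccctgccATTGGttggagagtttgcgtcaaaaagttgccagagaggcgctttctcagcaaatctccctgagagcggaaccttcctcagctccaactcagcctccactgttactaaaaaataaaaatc
Otx2 start 3, chr14:48665060-48665359: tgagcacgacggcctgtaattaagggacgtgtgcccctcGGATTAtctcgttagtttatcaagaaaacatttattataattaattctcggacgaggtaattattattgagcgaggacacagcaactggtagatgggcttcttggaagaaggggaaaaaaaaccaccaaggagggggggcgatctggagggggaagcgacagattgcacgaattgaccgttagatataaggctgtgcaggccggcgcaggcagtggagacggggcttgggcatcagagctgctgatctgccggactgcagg
Otx2 start 4, chr14:48662685-48662984: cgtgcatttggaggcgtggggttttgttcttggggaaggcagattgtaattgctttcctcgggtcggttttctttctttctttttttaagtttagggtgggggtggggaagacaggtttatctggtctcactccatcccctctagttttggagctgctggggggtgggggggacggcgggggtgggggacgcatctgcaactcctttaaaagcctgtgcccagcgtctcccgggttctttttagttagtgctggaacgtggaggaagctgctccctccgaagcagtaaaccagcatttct

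The 2 Sall2 windows differ in composition. The upstream one is 30.3% G and C, with 1 TATA word at position -145 and 1 CCAAT word at position -86 from the RefSeq start. The downstream one is 65% G and C and holds no capitalised word. A TATA word occurs in 13.6% and a CCAAT word in 37.4% of all windows. The window of Otx2 start 3 holds 1 OTX word (GGATTA, the reverse complement of TAATCC) at position -211, as do 7.06% of all windows. The window of Otx2 start 2 holds 1 CCAAT word on the reverse strand at position -70. Another RefSeq window at start 2, not printed, holds a TATA word at position -192 and no CCAAT word. The window of start 4 holds none of the capitalised words, and its RefSeq start lies 138 bases from the first base of the transcript Otx2-204. These matches describe the letters only. In all, 8 windows of 4 members matched, those of Otx2, Sall2, Foxd3 and Sox4, and Pou3f1, Tcf15 and Grhl2 had no entry.

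Withdrawal of LIF2i was the first comparison. At an adjusted p-value under 0.05 in edgeR's quasi-likelihood test, the criterion for a call here, 6 of the 7 members rose and none fell. Over all genes tested, 40.7% were called in this comparison and 21.1% were called as raised. In CPM, counts per 1000000 with TMM scaling between libraries, the 3 Control 72h -LIF2i libraries lay above the 3 Control +LIF2i libraries for all 7 members, which was so for 21.5% of all genes. The median log2 fold change of the members was 1.70, against 0.01 over all genes tested. Pou3f1, Sall2 and Grhl2 moved from under 10 CPM to 37 CPM or more, while the rise of Otx2, Sox4 and Foxd3 was 3.25-fold or less.

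**Figure D1:**
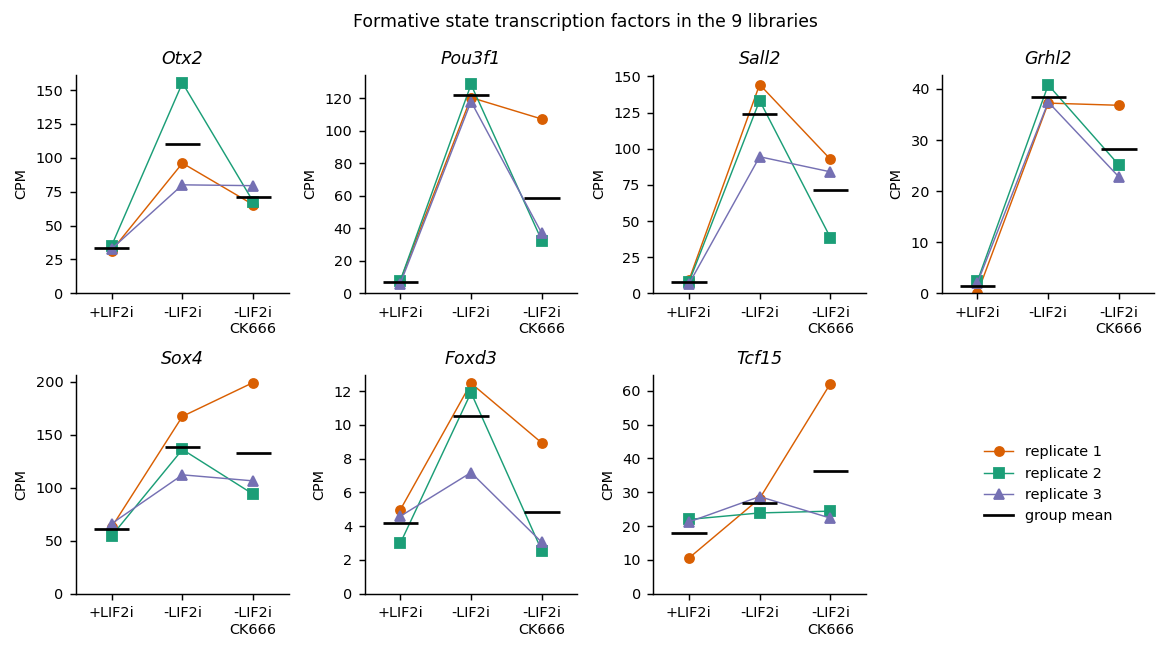
CPM (linear axes from 0) of each member in the 9 libraries, with same-numbered replicates joined by a line and the group mean as a black bar. Every member lies higher in the 3 Control 72h -LIF2i libraries than in the 3 Control +LIF2i libraries, and the CK666 library of replicate 1 stands above replicates 2 and 3 for every member but Otx2.

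Otx2 (chr14:48657677-48673819 on GRCm38, minus strand) had 31.5, 35.3 and 32.9 CPM in replicates 1, 2 and 3 of Control +LIF2i. It had 96.1, 155 and 80.1 CPM in the withdrawn controls. The groups were well apart, and the spread was wider after withdrawal, where replicate 2 was highest. The log2 fold change was 1.70 (SE 0.20, adjusted p 0.000204), a 3.25-fold rise seen in 3 of 3 same-numbered pairs.

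Pou3f1 (chr4:124656807-124660655, plus strand, a single exon) had 7.71, 7.79 and 6.01 CPM with LIF2i and 121, 129 and 118 CPM after withdrawal. Both groups were tight, with the withdrawn controls at 122 ± 5.5 CPM (SD, n = 3). Pou3f1 rose by 4.12 in log2 (SE 0.37, adjusted p 7.54e-05), which is 17.4-fold.

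Sall2 (chr14:52311172-52328762, minus strand) had 8.94, 7.58 and 6.38 CPM with LIF2i and 144, 133 and 94.5 CPM after withdrawal. No library of one group came near the other. Sall2 rose by 4.03 in log2 (SE 0.30, adjusted p 2.04e-05), or 16.3-fold, close to that of Pou3f1.

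Grhl2 (chr15:37233036-37363569, plus strand) was scarce in self-renewal, with 1, 46.4 and 33.9 estimated counts, or 0.0491, 2.43 and 2.06 CPM. Replicate 1 was under the detection floor of 3 counts and the other libraries were above it. After withdrawal it had 37.2, 40.8 and 37.4 CPM, far above all 3 self-renewing libraries. Its log2 fold change was 4.74 (SE 0.68, adjusted p 0.00122) with all replicates and 4.15 (SE 0.19, adjusted p 6.25e-07) without replicate 1, in which the self-renewing library had 1 count. The ratio was 16.8 in the replicate 2 pair and 18.2 in the replicate 3 pair. Without replicate 2 the log2 fold change was 5.28 and the call was lost (adjusted p 0.062).

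Sox4 (chr13:28948919-28953713, minus strand, a single exon) had 62.7, 54.5 and 66.0 CPM with LIF2i and 167, 136 and 112 CPM after withdrawal. The groups did not overlap, and the log2 fold change was 1.16 (SE 0.20, adjusted p 0.00148), or 2.23-fold. Of its exonic bases, 54.6% are also annotated to a long noncoding gene on the opposite strand, Gm26735. How strand was handled in counting is not given in the sources used here, so reads from the 2 genes cannot be told apart. The overlap with other genes was 8.57% for Pou3f1, 3.98% for Otx2, 3.83% for Foxd3 and 1.96% for Grhl2, and it was 0 for Sall2 and Tcf15.

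Foxd3 (chr4:99656299-99658622, plus strand, a single exon) had 4.96, 2.98 and 4.59 CPM with LIF2i and 12.5, 11.9 and 7.18 CPM after withdrawal. The nearest libraries of the groups were 7.18 and 4.96 CPM. Foxd3 rose by 1.34 in log2 (SE 0.38, adjusted p 0.0194), or 2.53-fold. This call is the weakest of the 6: it held in 16 of 20 alternative settings, and was lost in the fit without the replicate block (adjusted p 0.0825) and without replicate 2 (log2 fold change 0.95, adjusted p 0.137).

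Tcf15 (chr2:152143561-152149097, plus strand) had 10.5, 22.0 and 21.2 CPM with LIF2i and 28.1, 23.9 and 28.7 CPM after withdrawal. The groups do not overlap, but 22.0 and 23.9 CPM are close neighbours. The log2 fold change of 0.55 (SE 0.42, adjusted p 0.333) was not called. It was 1.41 in the replicate 1 pair and 0.12 and 0.44 in the others, so the size rests on the low Control +LIF2i library of replicate 1.

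Levels can be ordered between genes in TPM. With LIF2i, Tcf15 (24.3 to 36.8 TPM) and Otx2 (26.2 to 34.8 TPM) overlapped at the top, and Sox4 followed at 14.1 to 22.9 TPM. Foxd3, Pou3f1 and Sall2 overlapped between 1.70 and 3.99 TPM, and Grhl2 was lowest at 0.0266 to 1.13 TPM. After withdrawal Otx2 was highest at 68.5 to 138 TPM. Tcf15, Pou3f1, Sox4 and Sall2 then formed one overlapping band from 27.0 to 62.9 TPM, above Grhl2 at 14.7 to 15.9 TPM and Foxd3 at 4.56 to 9.56 TPM. Pou3f1 and Sall2 thus moved from a range that overlapped Foxd3 to one that overlapped Sox4, while Foxd3 and Grhl2 changed places. With CK666 the ranges of Tcf15 (41.0 to 130 TPM), Otx2 (55.6 to 69.7 TPM) and Sox4 (26.3 to 65.6 TPM) overlapped. Pou3f1 (11.5 to 44.7 TPM), Sall2 (10.7 to 29.9 TPM) and Grhl2 (10.1 to 17.4 TPM) overlapped with each other. In their highest libraries Pou3f1 and Sall2 reached into the range of Sox4, and Pou3f1 also into that of Tcf15. Grhl2 lay below Tcf15, Otx2 and Sox4, and Foxd3 was lowest at 1.57 to 6.48 TPM.

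The next comparison asked whether CK666 altered these genes in withdrawn cells. With all replicates, 0 of the 7 members were called by edgeR, in a comparison where 2.05% of all genes were. At an unadjusted p under 0.05 there were 4 members, Otx2, Pou3f1, Foxd3 and Sall2, all with lower values under CK666, and 19.7% of all genes were under that p. In CPM, Otx2, Pou3f1, Foxd3, Sall2 and Grhl2 were lower with CK666 in 3 of 3 pairs, as were 23.3% of all genes. For Otx2, Pou3f1, Sall2 and Grhl2 all 3 CK666 libraries lay below all 3 withdrawn controls in CPM, as for 7.69% of all genes. In TPM the ranges of the groups overlapped for each of these. The pairs of Otx2 in replicate 3 (69.7 TPM with CK666, 68.5 without) and Grhl2 in replicate 1 (17.4 and 14.7 TPM) then turned the other way. The median log2 fold change of the 7 was -0.60, against 0.02 over all genes.

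For Pou3f1, Tcf15, Sox4, Foxd3 and Grhl2 the log2 ratio of the replicate 1 pair was above those of both other pairs, while for Otx2 and Sall2 it lay between them. Without replicate 1 there were 3 members called as lowered, Pou3f1, Foxd3 and Grhl2. In that setting 12.3% of all genes were called and 6.19% were called as lowered. DESeq2 on all replicates also called 3, Pou3f1, Foxd3 and Sall2, with 7.76% of all genes called. Without the replicate block edgeR called 0 of the 7 and 0 of all genes, although 1251 genes had an unadjusted p under 0.05. The count of members lowered by CK666 is therefore 0 to 3, depending on the replicates and the test.

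**Figure D2:**
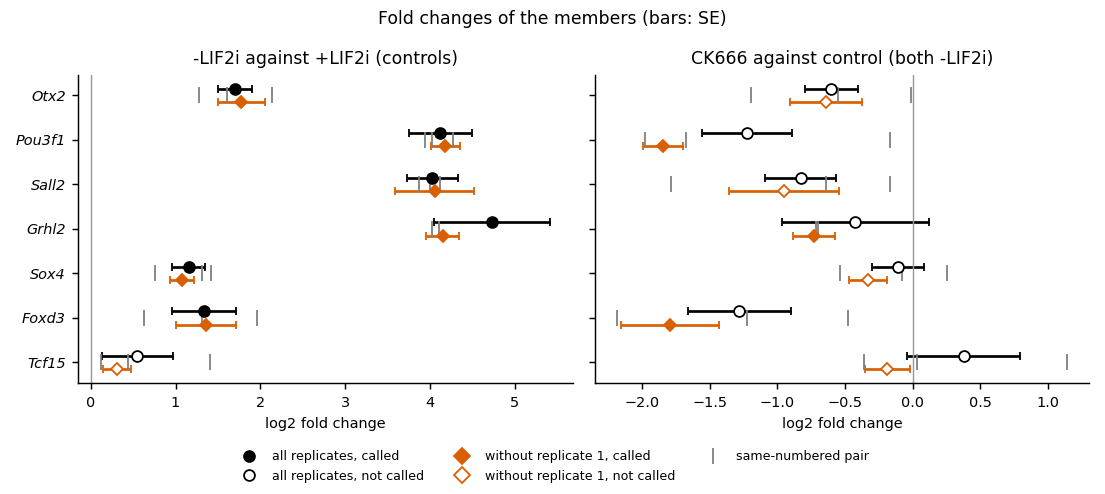
Log2 fold changes with SE for withdrawal (left) and CK666 against withdrawn control (right), from the fit with all replicates (circles) and without replicate 1 (diamonds), filled where called. Grey ticks are the same-numbered pairs, except the replicate 1 pair of Grhl2 on the left, which rests on 1 count. For withdrawal all values lie right of 0, and for CK666 the diamonds of Pou3f1, Foxd3 and Grhl2 are filled and left of 0.

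Pou3f1 had 107, 32.5 and 37.0 CPM with CK666 in replicates 1, 2 and 3, against 121, 129 and 118 CPM in the withdrawn controls. Replicate 1 was close to its control, whereas the CK666 libraries of replicates 2 and 3 held 0.253 and 0.313 times the CPM of theirs. Its log2 fold change was -1.22 (SE 0.33, adjusted p 0.0906) with all replicates and -1.84 (SE 0.15, adjusted p 0.000411) without replicate 1.

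Foxd3 had 8.93, 2.55 and 3.04 CPM with CK666, against 12.5, 11.9 and 7.18 CPM without. Again replicate 1 was the highest CK666 library, and its value lies inside the range of the withdrawn controls. For Foxd3 the log2 fold change was -1.28 (SE 0.38, adjusted p 0.106) with all replicates and -1.79 (SE 0.36, adjusted p 0.0138) without replicate 1. Foxd3 had 45 to 188.5 estimated counts with CK666, so counting error alone weighs more on it than on Otx2, Pou3f1, Sall2 or Sox4.

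Sall2 had 92.7, 38.6 and 84.1 CPM with CK666, against 144, 133 and 94.5 CPM without. Here replicate 2 was the low library, and replicate 3 lay close to its control. For Sall2 the log2 fold change was -0.83 (SE 0.26, adjusted p 0.130) with all replicates and -0.95 (SE 0.41, adjusted p 0.210) without replicate 1. DESeq2 gave -0.84 (adjusted p 0.0256).

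Otx2 had 65.4, 67.7 and 79.5 CPM with CK666, against 96.1, 155 and 80.1 CPM without. The replicate 3 values were nearly equal. The log2 fold change of -0.60 (SE 0.20, adjusted p 0.135) was not called with all replicates or in any of 20 alternative settings.

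Grhl2 had 36.8, 25.1 and 22.8 CPM with CK666, against 37.2, 40.8 and 37.4 CPM without. The replicate 1 values were nearly equal, and the CK666 libraries of replicates 2 and 3 held 0.615 and 0.608 times the CPM of their controls. For Grhl2 the log2 fold change was -0.42 (SE 0.54, adjusted p 0.724) with all replicates and -0.73 (SE 0.16, adjusted p 0.0170) without replicate 1.

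Sox4 had 199, 93.8 and 106 CPM with CK666, against 167, 136 and 112 CPM without. The pairs pointed both ways and the groups overlapped. For Sox4 the log2 fold change was -0.11 (SE 0.19, adjusted p 0.811), and -0.33 (adjusted p 0.154) without replicate 1.

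Tcf15 had 62.1, 24.4 and 22.3 CPM with CK666, against 28.1, 23.9 and 28.7 CPM without. Replicate 1 was more than the sum of the other CK666 libraries. The log2 fold change of 0.38 (SE 0.42, adjusted p 0.678) was not called and was -0.19 (adjusted p 0.505) without replicate 1.

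CK666-treated cells were also set against self-renewing cells. This comparison shares its libraries with the others and is not independent of them. In it 5 of 7 members rose and none fell, where 36.9% of all genes were called and 19.8% were called as raised. Sall2 was 9.18-fold higher (log2 fold change 3.20, SE 0.29, adjusted p 7.05e-05). Pou3f1 was 7.46-fold higher (2.90, SE 0.36, adjusted p 0.000475), although its ratio ranged from 4.17 in the replicate 2 pair to 13.9 in the replicate 1 pair and its log2 fold change was 2.30 without the CK666 library of replicate 1. Otx2 was 2.15-fold higher (1.10, SE 0.20, adjusted p 0.00239) and Sox4 was 2.07-fold higher (1.05, SE 0.20, adjusted p 0.00287).

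Grhl2 differed by 4.31 in log2 between CK666-treated and self-renewing cells (adjusted p 0.00219), by 3.42 without replicate 1 and by 4.97, no longer called, without replicate 2 (adjusted p 0.0763). Foxd3 did not pass the test: its log2 fold change was 0.06 (SE 0.38, adjusted p 0.924), and it was higher than self-renewal in replicate 1 and lower in replicates 2 and 3. Tcf15 was higher by 0.93 (SE 0.44, adjusted p 0.130), which was 0.12 without replicate 1. DESeq2 called this Tcf15 value (adjusted p 0.0378), the only one of 20 settings to do so. Within the same replicate number, the CPM order self-renewal below CK666 below withdrawn control held for 5 members in replicate 1, 5 in replicate 2 and 6 in replicate 3. How many of all genes had this order was not counted, so it is not shown to be particular to the members. For Otx2, Pou3f1, Sall2 and Grhl2 it held in all 3. The CK666 library of Otx2 in replicate 3 and of Grhl2 in replicate 1 held 0.992 and 0.989 times the CPM of its control, and both reversed in TPM.

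Single transcripts show which annotated forms carried these levels. The 7 genes have 23 transcripts in the files, of which 17 reached 5% of their gene's TPM in a group mean. Transcripts were tested over 39637 transcripts, and 17 of the 23 entered the test. Withdrawal raised 7 of them and lowered none, while 6.3% of all transcripts were called and 3.59% were called as raised. Among the raised, Sox4-201 (adjusted p 0.0339) was called in only 2 of 14 alternative settings and Pou3f1-201 in 12. The comparison of CK666 with withdrawn control called 0 of the 17 and 0 of all transcripts in edgeR, with 2931 at an unadjusted p under 0.05. The uncertainty of dividing reads between overlapping transcripts is not part of these tests. Leaving out replicate 2 or replicate 3 altogether left 0 transcripts called in edgeR in any of the 3 comparisons. The withdrawal comparison then had 5061 and 5018 at an unadjusted p under 0.05, and CK666 against self-renewal had 4734 and 4259. CK666 against self-renewal gave 5 raised transcripts, Otx2-204, Pou3f1-201, Sall2-201, Sall2-202 and Grhl2-201, where 4.89% of all transcripts were called and 3.13% were called as raised. Over 14 alternative settings these calls held in 5 for Otx2-204, 10 for Pou3f1-201, 9 for Sall2-201, 11 for Sall2-202 and 3 for Grhl2-201.

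By estimated counts, Sall2 differed in composition between the groups. Sall2-201, which starts upstream at position 52328762 of chromosome 14 and has 660 bases found in no other transcript of the gene, had 0 estimated counts in all 3 Control +LIF2i libraries. The 182, 145 and 105 counts of Sall2 in those libraries were all assigned to Sall2-202, which starts at position 52316323. Reads in bases that both forms hold could have come from either. How closely this 0 limits the upstream form, given its own bases, was not tested. After withdrawal Sall2-201 had 1199, 1092 and 470 counts. It made up 38.2%, 40.6% and 25.3% of the Sall2 TPM in replicates 1, 2 and 3. With CK666 it made up 32.2%, 23.2% and 20.7%.

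In CPM, Sall2-201 was at 46.6 ± 18.4 (SD, n = 3) in withdrawn controls and at 19.9 ± 11.0 (SD, n = 3) with CK666. No fold against self-renewal is given, since it is listed at 0 there. Its withdrawal call (adjusted p 0.00787) held in 12 of 14 alternative settings. Sall2-202 rose too, by 3.43 in log2 (SE 0.31, adjusted p 0.00389), in 12 of 14 settings. In each of the 3 pairs the share of the upstream form was lower with CK666 than in the withdrawn control, but this share was not tested, and neither Sall2 transcript was called for CK666. The low G and C content of the upstream window shown above belongs to this form and the high content to Sall2-202. The RefSeq start of the upstream window lies 92 bases from the first base of Sall2-201.

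**Figure D3:**
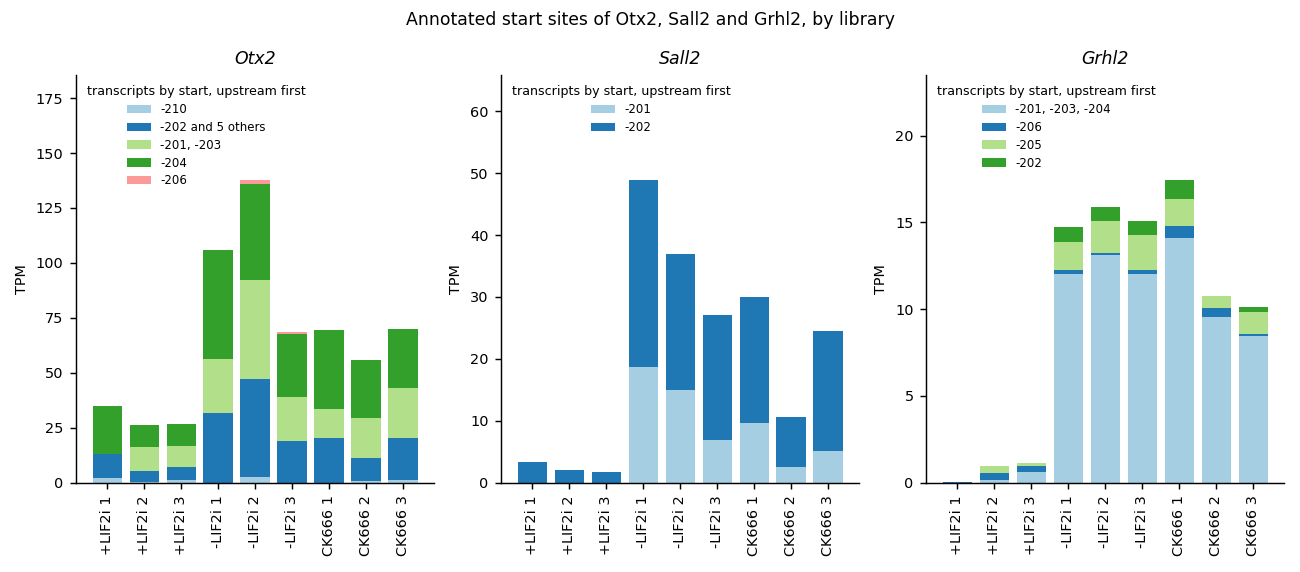
TPM (linear axes from 0) of Otx2, Sall2 and Grhl2 in the 9 libraries, stacked by annotated start site with the most upstream start at the bottom. The upstream Sall2 form is listed at 0 in the 3 Control +LIF2i libraries and above 0 in the other 6, and the first start of Grhl2 makes up 79.5% to 82.5% of its TPM in the withdrawn controls.

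Otx2 has 5 groups of starts, joined where first bases lie within 500 bases. Start 4, with Otx2-204 alone, gave the largest share of the TPM summed over each group: 63.1%, 37.3% and 38.4% of the gene in replicates 1, 2 and 3 of Control +LIF2i, 47.0%, 31.8% and 42.0% after withdrawal and 52.1%, 47.4% and 38.3% with CK666. Start 3 was ahead of it in replicate 2 of Control +LIF2i (42.4%) and in replicate 2 of the withdrawn controls (32.8%), where start 2 (32.4%) was ahead of it as well. Otx2-204, which has 213 bases of its own, rose by 1.64 in log2 on withdrawal (SE 0.20, adjusted p 0.00802), a call held in 12 of 14 settings. Otx2-202, at start 2, rose by 1.96 (SE 0.42, adjusted p 0.0465) but has no base of its own and was called in 3 of 14 settings. Otx2-201, at start 3, had 0, 287 and 200 counts with LIF2i and 505, 1119 and 507 after withdrawal. Otx2-201 has no base of its own either, so these counts, with the 0 in replicate 1, rest on the division of shared reads. Its change was not called (adjusted p 0.313), nor was it in any of 14 settings.

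By estimated counts, Grhl2 was listed as another mixture in self-renewal than after withdrawal. Its total with LIF2i was only 1, 46.4 and 33.9 counts, and the shares were not tested. The first start, which holds the full-length form Grhl2-201, had 0, 4 and 12.1 counts with LIF2i and 685, 681 and 582 counts after withdrawal. A retained-intron transcript, Grhl2-206, with 3107 bases of its own, had 1, 21.4 and 13.9 counts with LIF2i and 9.51, 4.64 and 10.5 after withdrawal. So the first start gave 81.6%, 82.5% and 79.5% of the Grhl2 TPM after withdrawal and 81.0%, 89.0% and 83.6% with CK666. With LIF2i it gave 0%, 14.8% and 53.2% of a total of about 1 TPM or less. Grhl2-201, of whose 4947 bases 7 are found in no other transcript of the gene, was called for withdrawal (adjusted p 0.0162), in 7 of 14 settings. Pou3f1, Tcf15, Foxd3 and Sox4 each have 1 transcript in the files.

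Within their families, the members moved with some relatives and against others. Of 18 relatives, 12 passed the filter and 8 were under 1 TPM in all 9 libraries, among them Crx, Pou3f2, Foxd1, Foxd2 and Foxd4. Withdrawal raised 4 of the 12 and lowered 4, or 3 and 3 without the replicate block, where 21.1% of all genes were called as raised and 19.7% as lowered with it. In edgeR, CK666 changed 0 of the 12, with 0 at an unadjusted p under 0.05. Over all genes, 2.05% were called for CK666 and 19.7% were under that p.

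The grainyhead family exchanged members. Grhl3 had 49.6, 72.2 and 69.2 CPM with LIF2i and 2.65, 3.53 and 4.10 CPM after withdrawal, a fall of log2 fold change -4.21 (SE 0.25, adjusted p 5.58e-06). In TPM, Grhl3 was at 33.6 ± 1.06 (SD, n = 3) in self-renewal, where Grhl2 was at 0.705 ± 0.594, and at 1.86 ± 0.242 after withdrawal, where Grhl2 was at 15.2 ± 0.597. Grhl1 stayed between 1.20 and 2.55 TPM in the 9 libraries and was not called. With CK666, Grhl3 had 1.65, 3.90 and 2.18 TPM.

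The spalt family also split. Sall4, a pluripotency factor, had a log2 fold change of -0.31 on withdrawal (SE 0.10, adjusted p 0.0392), a call lost without the replicate block (adjusted p 0.678) and held in 7 of 20 settings. Sall3 fell by 3.61 in log2 (SE 0.52, adjusted p 0.000601), from 0.837 to 5.92 TPM with LIF2i to 0.101 to 0.293 TPM after withdrawal. The fold change of Sall3 was -2.87 in log2 without replicate 1 and -4.33 without replicate 3. Sall1 had -0.34 (adjusted p 0.0628) and was not called. Sall2 alone of the 4 was raised.

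The SoxC group moved together. Sox11 rose from 1.47, 4.86 and 6.26 CPM to 74.1, 49.8 and 81.2 CPM (log2 fold change 4.02, SE 0.45, adjusted p 0.000248). Sox12 rose by 1.10 (SE 0.18, adjusted p 0.00124), near the size for Sox4. The change with CK666 was 0.03 for Sox11 (adjusted p 0.977) and 0.22 for Sox12 (adjusted p 0.528). In TPM after withdrawal, Sox4 (32.5 to 58.0) and Sox12 (27.1 to 64.9) overlapped, and Sox11 was lower at 7.98 to 14.5.

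Relatives of the other members were scarce. Scx, related to Tcf15, rose by 1.79 (SE 0.55, adjusted p 0.0265) at 2.29 to 4.56 TPM, a call lost without replicate 2 (adjusted p 0.0850) or replicate 3 (adjusted p 0.288). Msc fell by 3.52 (SE 0.80, adjusted p 0.00715), a call lost without the Control +LIF2i library of replicate 3 (adjusted p 0.0605). Pou3f4 was called as raised (adjusted p 0.0340), from 0 to 3.2 counts to 6.13 to 36.0 counts (estimated), so at levels near the floor. That call was lost without the replicate block (adjusted p 0.0576) and held in 8 of the 17 alternative settings that gave Pou3f4 a value. Otx1 had 0.243 to 0.641 TPM with LIF2i, was not called and stayed far below Otx2.

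**Figure D4:**
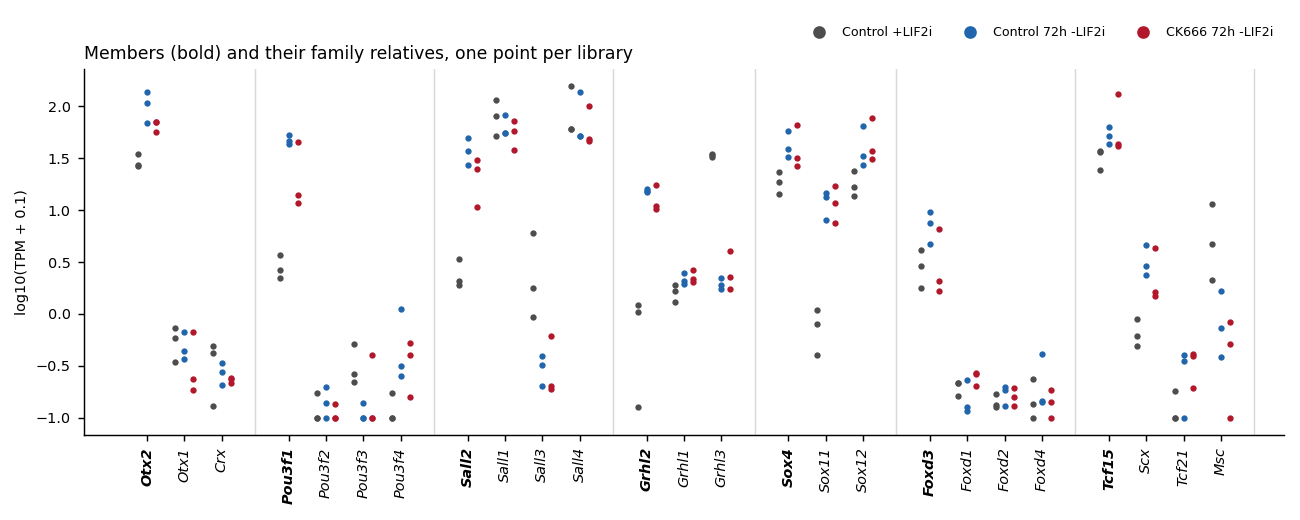
Levels as log10(TPM + 0.1) of the members (bold) and their relatives, with 1 point per library and the 3 groups side by side. Grhl2 and Grhl3 change places on withdrawal, and Sall2 rises but stays below Sall1 and Sall4 in the withdrawn controls, while Sall3 falls.

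Other genes of the formative programme were read from a list of 14. Withdrawal raised 10 of them and lowered none, where 21.1% of all genes were called as raised. The median log2 fold change was 2.08, against 0.01 over all genes. Fgf5, the FGF ligand that marks the early epiblast, had 0, 0 and 1.06 counts with LIF2i, under the floor of 3 counts in each library, and 43.4, 60.7 and 38.2 CPM after withdrawal. Sox3 rose by 5.65 (SE 0.42, adjusted p 1.87e-05), the DNA methyltransferase gene Dnmt3b by 4.51 (SE 0.26, adjusted p 5.34e-06) and the WNT effector Lef1 by 3.90 (SE 0.46, adjusted p 0.000242). The Lef1 value was 3.29 without replicate 1 and 4.65 without replicate 2.

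Under CK666, 1 of the 14 was lowered and none raised, where 2.05% of all genes were called. The median was -0.33, against 0.02 over all genes. The lowered gene was Fgf5, with 10.7, 2.55 and 4.43 CPM and a log2 fold change of -3.16 (SE 0.43, adjusted p 0.0210). This call held in 12 of 20 settings and was lost without the replicate block (adjusted p 0.260). The value for Fgf5 was -3.82 without replicate 1 and called. Without replicate 1, 8 of 14 were lowered, with a median of -0.62, in the setting where 6.19% of all genes were called as lowered. They were Fgf5, Dnmt3b, Zic2, Zic5, Sox3, Utf1, Pim2 and Fgf15. Sox3 had -1.25 (adjusted p 0.0803), Dnmt3b -0.80 (adjusted p 0.0957) and Lef1 -0.26 (adjusted p 0.764) with all replicates. Without replicate 1, Sox3 had -1.43 (adjusted p 0.0145) and Dnmt3b -0.996 (adjusted p 0.00218), both called, and Lef1 had -0.10 and was not called.

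Epithelial genes known as targets of grainyhead factors were read beside Grhl2. Withdrawal raised 8 of 9, with a median log2 fold change of 2.45 against 0.01 over all genes, of which 21.1% were called as raised. It raised 6 of 9 without the replicate block and 7 of 9 without replicate 1. Esrp1, an epithelial splicing regulator, rose by 6.92 (SE 0.25, adjusted p 1.05e-06), from 0.393, 1.36 and 1.09 CPM to 69.6, 129 and 144 CPM. Cldn6, a tight junction claudin, rose by 5.14 (SE 0.48, adjusted p 0.000156), or by 5.77 without the Control +LIF2i library of replicate 2. Cldn7, another claudin, rose by 4.15 (SE 0.28, adjusted p 1.08e-05).

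CK666 lowered 1 of the 9, Esrp1, to 29.7, 44.5 and 78.7 CPM (log2 fold change -1.20, SE 0.18, adjusted p 0.0260), a call lost without the replicate block (adjusted p 0.477). Over all genes, 2.05% were called for CK666. Without replicate 1, CK666 lowered 2 of 9, with a median of -0.38, where 6.19% of all genes were called as lowered. Some genes of trophoblast and surface epithelium also moved on withdrawal. The summed level of 8 such markers was 64.8 to 105 TPM with LIF2i, 175 to 387 TPM after withdrawal and 117 to 380 TPM with CK666. Krt18 went from 4.71 to 12.5 TPM with LIF2i to 125 to 301 TPM after withdrawal, and Krt8 from 11.4 to 43.3 TPM to 48.1 to 119 TPM. Tfap2c, a trophoblast factor also known from naive cells, went the other way, from 40.6 to 55.2 TPM to 1.28 to 3.44 TPM. Gata3 had 1.23, 0.523 and 0.182 CPM with LIF2i and 0.675, 1.30 and 2.64 CPM after withdrawal, and was called as raised without replicate 1 (adjusted p 0.0150) but not with it (adjusted p 0.266). With CK666 it had 2.75, 2.32 and 4.52 CPM. Of the other markers, Krt5 was at or under 3 counts in every library, Cdx2 and Elf5 were under 1 TPM throughout, and Trp63 had 0 counts in all libraries but 1. Their part in the Grhl2 result was not tested.

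**Figure D5:**
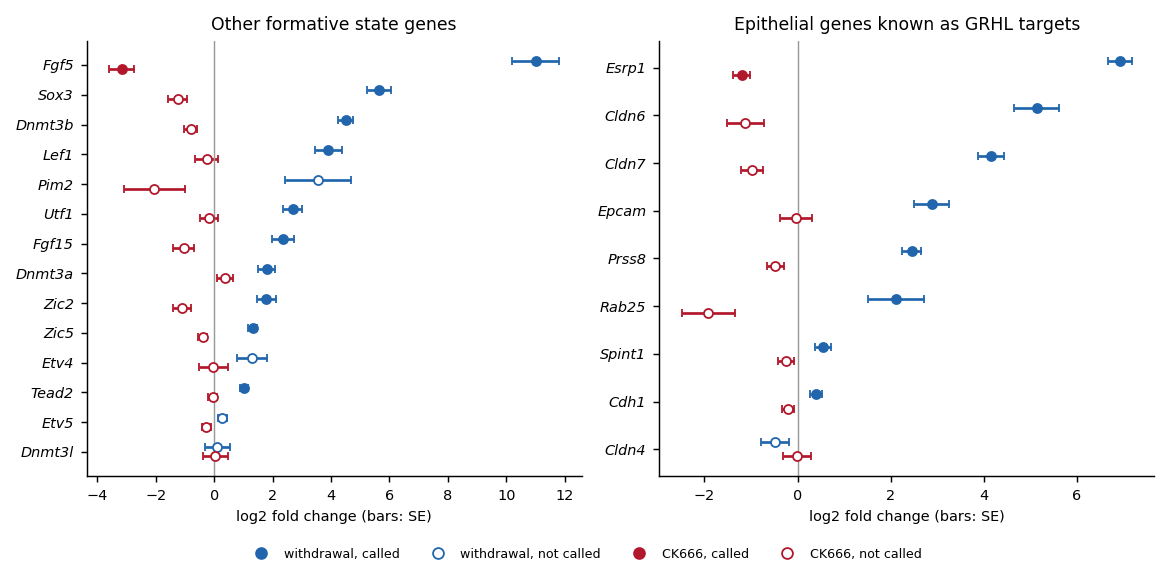
Log2 fold changes with SE for withdrawal (blue) and CK666 against withdrawn control (red) of 14 other formative state genes (left) and 9 epithelial genes known as grainyhead targets (right), filled where called. Most blue points are filled and right of 0, while only Fgf5 and Esrp1 have filled red points, both left of 0.

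The naive factors moved opposite to the 6 members that rose. All 11 on the list were lowered by withdrawal, with a median log2 fold change of -5.01 against 0.01 over all genes, of which 19.7% were called as lowered. CK666 raised 1 of the 11, the T-box factor Tbx3 (3.31, SE 0.52, adjusted p 0.0314), and lowered none, where 2.05% of all genes were called. The median of the 11 for CK666 was 0.92, against 0.02 over all genes. The Tbx3 call was lost without the replicate block (adjusted p 0.189) and held in 9 of 20 settings. Without replicate 1 there were 2 raised, Tbx3 and Nanog, where 12.3% of all genes were called.

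Genes whose pattern was most like each member's were found by the Pearson r of log2 CPM over the 9 libraries, among protein-coding genes whose mean log2 CPM was 3 or more. These r values describe likeness only. The 9 libraries fall into 3 groups, so r includes the differences between groups, and libraries of a group share their medium. Sall2 had the most like genes, with 149 at r of at least 0.95, led by Pitpnm1 (0.995), the histone methyltransferase gene Suv39h1 (0.994) and Agap3 (0.990). Grhl2 had 82, led by Atp10a, the RNA-editing enzyme gene Adarb1 and Bspry, all at 0.991 to 0.992. The Grhl2 values include the Control +LIF2i library of replicate 1, with 1 count, and r was not worked out without it. Pou3f1 had 69, led by Acsl5 (0.989), the adaptor gene Bcar1 (0.985) and the arginine methyltransferase gene Prmt1 (0.979).

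Sox4 had 39 such genes, led by Eef1akmt4 (0.994), Suds3 (0.980) and the atypical cadherin gene Celsr2 (0.976). Otx2 had 5, led by Prkacb (0.973), Mbp (0.971) and Parp10 (0.964). Foxd3 had 2, Rps13 (0.958) and Fam169a (0.953), followed by Pa2g4 (0.939). Tcf15 had 0, and its nearest genes were Actr1b (0.939), Tmem147 (0.937) and Bccip (0.936). The 2 members with the fewest like genes, Tcf15 and Foxd3, are also those that edgeR did not call with all replicates in CK666-treated against self-renewing cells.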

How the data were processed

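Each library has 1 deposited table with a row per transcript, whose columns are, per the file headers, estimated counts, TPM, length and effective length. The deposited estimated counts carry no normalisation and can be fractional. The deposited TPM were divided by effective length and brought to the same total in each library by the authors. Per the submitters' processing notes, FastQC, cutadapt 1.8.1, kallisto and sleuth were used and the builds mm10 and GRCh38 are named, without roles. Poly-A RNA was used, per the labels' protocols.

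Transcripts were assigned to genes with GENCODE M21 (GRCm38), which matched 116640 of 119414 (97.7%). Estimated counts and TPM were summed per gene, and counts were rounded. Unmatched transcripts, 0.895% to 1.08% of a library's counts, were left out. The gene test was that of edgeR 4.0.16 in R 4.3.3 (robust quasi-likelihood test, TMM scaling, filter by group, all 9 libraries in 1 fit, 4 residual degrees of freedom), with p-values adjusted over 14648 genes by Benjamini and Hochberg. SE was derived from the test statistic. CPM are TMM-scaled. The floor of 3 counts per library covers counting error only and lies at 0.142 to 0.182 CPM.

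The replicate number was a block, since the series text calls the replicates paired. As a check, deviations from group means correlated between same-numbered libraries (median r 0.41, range 0.30 to 0.65). Between others r was lower (median -0.37), from -0.53 to -0.35 with replicate 1 and from 0.21 to 0.29 between replicates 2 and 3. Deviations within a group cancel out by construction, so the low r between others is no separate support for pairing. The alternatives were 20 for genes and 14 for transcripts, among them DESeq2 1.42.0 and limma 3.58.1 (voom). Members, relatives, gene lists (other formative genes, grainyhead targets, naive factors, 7 cell type marker lists) and the rule for like genes were chosen with earlier results of these data known. Named genes of the first 2 lists are those with the 3 or 4 largest changes. Zic2, Zic5, Utf1, Pim2 and Fgf15 were named besides, as called without replicate 1. Naive factors are given by counts and median. Tbx3, Nanog and the cell type markers were named after their values were seen. Besides the 9 genes counted, 1 gene of the grainyhead list is not reported here.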

Additional observations from a re-analysis of the deposited data

How the results depend on the processing

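In the withdrawal and self-renewal comparisons 6 and 5 of 7 members were called, and 4 to 6 and 4 to 5 when single libraries or replicate numbers were left out. DESeq2 called 6 in the self-renewal comparison, with Tcf15 added. Over 20 settings and 3 comparisons, 395 member fold changes kept direction and call, 10 gained a call, 6 lost it and 9 changed sign. The sign changes were all in values that were not called. They were Tcf15 for CK666, which ranged from -0.38 to 0.73 with libraries left out and was below 0 without the CK666 library of replicate 1 or without replicate 1, Sox4 for CK666, from -0.39 to 0.086 and above 0 without the withdrawn control of replicate 2, its CK666 library or the whole of replicate 2, and Foxd3 for CK666 against self-renewal, from -0.44 to 0.42 and below 0 without the Control +LIF2i library of replicate 1 or 2, the CK666 library of replicate 1 or the whole of replicate 1.

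The CK666 comparison depended on the setting. Members called were 3 with DESeq2 and 1 with 2 groups only (Foxd3), and 0 to 3 with libraries left out. Genes called were 300 in the main setting, 1136 with DESeq2, 553 with voom, 565 with no filter, 147 with effective length offsets, 1367 with 2 groups only and 0 to 1811 with libraries left out. Without the replicate block 0 genes were called for CK666, 3509 for withdrawal (5967 with it) and 2966 for CK666 against self-renewal (5408 with it). With libraries left out the latter 2 ranged from 3099 to 6588 and from 2413 to 6129. Transcripts called for withdrawal were 2499, and 1556 without the block. For CK666 against self-renewal they were 1940, and 1242 without the block. For CK666 they were 0, and 5 with no filter. With libraries left out they ranged from 0 to 2294, 0 to 1724 and 0 to 1. The cause was not tested. Of the members' own calls, the block changed only Foxd3 for withdrawal. Depth limits Grhl2 with LIF2i (1 to 46.4 counts) and Foxd3 (45 to 258.5 counts).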

Other observations

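The lists of cell type markers give the setting in which the members changed. For all counts in these lists, withdrawal raised 21.1% and lowered 19.7% of all genes tested. Without the replicate block it raised 1919 and lowered 1590 of 14648 genes. Without replicate 1 it raised 3491 and lowered 3097 of 14716. The summed level of 6 pluripotency markers was 2073 to 2488 TPM with LIF2i, 2344 to 2674 TPM after withdrawal and 2087 to 2782 TPM with CK666, most of it Pou5f1. Of these 6, withdrawal raised 2, Lin28a (75.4 to 92.7 TPM with LIF2i and 258 to 481 TPM after withdrawal) and Utf1, and lowered 2, Sox2 (242 to 405 TPM and 72.7 to 130 TPM) and Sall4. The 6 neural crest markers, which are of interest because Foxd3 and Sox4 are also known from that lineage, summed to 2.86 to 7.05, 4.13 to 10.3 and 8.85 to 13.9 TPM in the same order, with Pax3 and Pax7 under 1 TPM in every library. Withdrawal raised 2 and lowered 1 of the 4 tested, and it lowered 0 without the replicate block or without replicate 1. CK666 called none in edgeR with all replicates but raised 2, Ets1 and Snai2, without replicate 1. The 6 early neural markers summed to 30.0 to 184, 16.5 to 66.1 and 19.1 to 64.5 TPM, with Neurog2 and Olig2 at or under 3 counts throughout. Withdrawal lowered 2 of the 4 tested, Sox1 and Tubb3, and raised none, and without the replicate block neither was called (adjusted p 0.598 and 0.157).

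The 6 primitive streak and mesoderm markers summed to 5.04 to 10.7, 5.12 to 10.1 and 2.50 to 5.38 TPM, and withdrawal raised 1 of the 3 tested. The 6 endoderm markers summed to 4.80 to 9.07, 9.58 to 30.4 and 11.9 to 23.2 TPM, with 1 of 6 raised by withdrawal. Without replicate 1, withdrawal raised 1 and lowered 1 of the 4 tested. The 6 fibroblast or feeder markers summed to 5.97 to 13.4, 24.6 to 33.6 and 15.9 to 25.7 TPM. Withdrawal raised 4 of the 5 tested, where 21.1% of all genes were called as raised and 19.7% as lowered. It raised 2 of 5 without the replicate block, and raised 3 and lowered 1 (Pdgfrb) without replicate 1. In the trophoblast and surface epithelium list, withdrawal raised 2 and lowered 1 of the 4 tested, and raised 3 without replicate 1. With all replicates CK666 called 0 genes of any of these lists in edgeR, with 0 to 2 genes a list at an unadjusted p under 0.05. Over all genes, 2.05% were called and 19.7% were under that p. Without replicate 1, where 12.3% of all genes were called, it raised the early neural markers Sox1 and Pax6 (2 of 4 tested), Gata4 of the endoderm list (1 of 4) and Tfap2c (1 of 4), besides the neural crest pair. It lowered Lin28a and Utf1 (2 of 6) and Krt8 (1 of 4) in that setting, and called none of the mesoderm or fibroblast markers. The part of these markers in the members' changes was not tested.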
